A study of Homo sapiens with 6 samples.

Results

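The annexin and S100 calcium-binding genes comprised 31 of the 57150 genes in the deposited table of K562 cells, a human leukemia line. They were chosen by symbol alone (ANXA or S100A followed by a number, and S100B, S100P, S100Z and S100G), a rule that uses no measured value, although the family was picked with earlier results of these data known. The set held 12 annexins and 19 S100 genes. RNA-seq libraries were made from 3 pools of cells transfected with either of 2 siRNAs that target αCP1 and αCP2 together, and from 3 pools transfected with control siRNAs, all harvested 72 h after transfection. αCP1 and αCP2 are poly(C)-binding proteins that act in splicing and mRNA stability. Fragments per kilobase of transcript, scaled for library size, are abbreviated FPKM. The table gives 1 FPKM value and 1 estimated count of each gene under the labels KD and CTRL. The 3 pools of a group are not separated in it, so there was no spread between replicates and no test was run. All differences below are descriptions of these 2 columns.

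The labels of the columns were first checked against the targeted genes and the cell type. PCBP1, which encodes αCP1, had an FPKM of 184.1 under KD and 187.8 under CTRL. PCBP2, which encodes αCP2, had 530.8 and 342.4, so only PCBP1 was lower under KD, by a log2 ratio of -0.03, and every direction below is that of the column labels. Of 16 erythroid and hematopoietic markers, 12 were under 1 FPKM in each column and 10 were listed at 0, GATA1 and KLF1 among them, which goes against the label K562, a line of erythroid character. Of 8 epithelial markers, 4 had an FPKM over 5 in both columns, and the summed FPKM of all 8 was 4370 under KD and 3190 under CTRL, with KRT19 and ESRP1 listed at 0. The 6 mesenchymal markers summed to 699.8 and 553.7, nearly all of it from VIM, with COL1A2 listed at 0. The summed FPKM of the erythroid markers was 161.6 and 43.4, most of it from HBE1. The part of these marker levels in the annexin and S100 values was not tested, and in such bulk RNA fewer cells of a type and less RNA per cell cannot be told apart. Summed over all genes, the estimated counts were 13699340 under KD and 11680567 under CTRL. These sums are not the sequencing depth, since the paper lists more mapped read pairs than either for every single library.

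Annexins are cytosolic proteins that bind negatively charged phospholipids when calcium rises, by way of conserved annexin repeats, and they act in membrane trafficking, membrane repair and the organisation of the cortical cytoskeleton. S100 proteins are small dimers whose subunits each carry a pair of EF hands, the helix-loop-helix calcium site that calmodulin also uses. On binding calcium most of them expose a surface that grips a target protein, and several grip the N-terminal tail of an annexin. Most S100A genes lie side by side in the epidermal differentiation region of chromosome 1, whereas annexin genes are scattered over the genome.

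Of the 31 genes, 20 had a mean FPKM of at least 1 over both columns, 10 annexins and 10 S100 genes, and log2 ratios were taken for these. The log2 ratio sets FPKM + 1 under KD over FPKM + 1 under CTRL, and for genes with few fragments it is too small. The levels spanned the range from about 1 FPKM to the most abundant mRNAs of the cell. All 31 genes together took 0.858% of the summed FPKM under KD and 1.15% under CTRL. The 19 S100 genes accounted for 0.663% and 0.859%, and the 12 annexins for 0.195% and 0.287%.

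**Figure D1:**
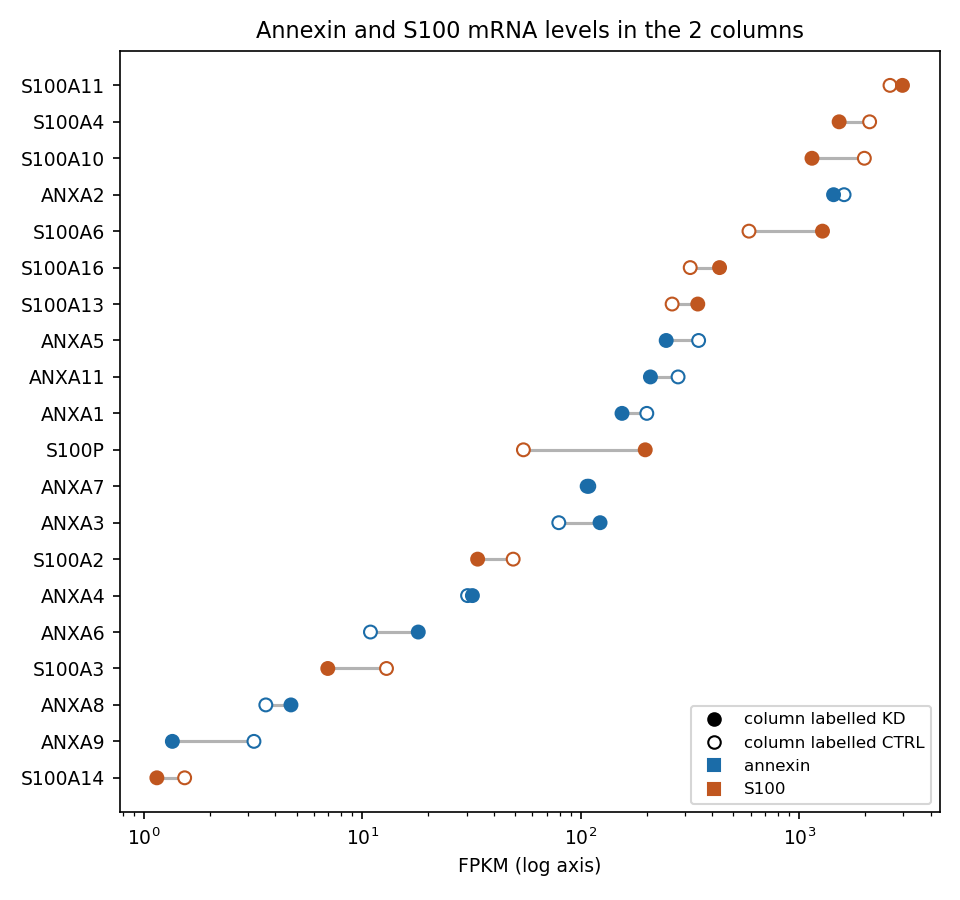
FPKM (log axis) of the 20 annexin and S100 genes averaging 1 FPKM or more, with filled circles for the KD-labelled column and open circles for the CTRL-labelled column. S100A11 is at the top in both columns, and the widest gap is that of S100P, at 197.3 and 54.6.

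A log2 ratio of 1 or more, a 2-fold difference, was reached by 2 of the 20 genes, S100P and S100A6, against 8.51% of the 13741 genes in the table that passed the same filter. A log2 ratio of -1 or less was reached by 0 of the 20, against 3.27% of all genes. The members' counts were therefore near the background in both directions. The gene just past the 2-fold limit was S100A6, at 1.12, the next below it was ANXA6, at 0.68, and the lowest ratio was that of ANXA9, at -0.83. Of the 20 genes, 9 had a higher and 11 a lower FPKM under KD, with a median log2 ratio of -0.09, and the median over all genes was 0.01.

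S100P, an S100 protein first found in placenta and abundant in several epithelial tumours, lies outside the S100 cluster, at chr4:6695605-6698897 on the plus strand (hg19, GENCODE 44). It had an FPKM of 197.3 under KD and 54.6 under CTRL, a log2 ratio of 1.83. The counts behind these values were 778 and 318, and divided by the column sums they gave a log2 ratio of count shares of 1.06 with a 95% interval from 0.87 to 1.25 (exact binomial, counting error only). The FPKM and the counts of S100P thus put the gene higher in the same column, but by a different amount, 3.61-fold and 2.09-fold. A count of S100P was worth 0.254 FPKM under KD and 0.172 under CTRL, a quotient of 1.48. Over 10886 genes with at least 50 counts in each column the median quotient was 0.998, and 1.5% of them had one as large as that of S100P or larger.

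S100A6, or calcyclin, which binds the ubiquitin-ligase adaptor CACYBP and annexins, lies at chr1:153507075-153508720 on the minus strand and was among the abundant members. It had an FPKM of 1278 under KD and 588.8 under CTRL, a log2 ratio of 1.12. Its 7586 and 3434 counts gave a ratio of count shares of 0.91, with an interval from 0.86 to 0.97. S100A6 was the member of highest GC content, at 60.2%, and once the trend with GC content and transcript length was taken out, its log2 ratio was 0.65. S100A6 was thus under 2-fold without the trend, and S100P was past it, at 1.73. On count shares S100A6 was past 2-fold only relative to the median of all genes, at 1.12.

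S100A10 was the abundant member with the lowest ratio. S100A10, or p11, is the S100 protein that has lost calcium binding and is held in the open form, and it joins ANXA2 in a tetramer at the plasma membrane. Its FPKM was 1144 under KD and 1986 under CTRL, a log2 ratio of -0.80. From 6592 and 11220 counts the ratio of count shares was -0.997, with an interval from -1.04 to -0.95, and the trend-removed value was -0.77.

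The promoters of these 3 genes are shown because their mRNAs had the highest and the lowest ratios among members over 50 FPKM in both columns. They are the RefSeq windows of GRCh38.p14, from 250 bases before to 50 bases after the start, written 5′ to 3′ on the strand of the gene. Capitals mark matches, on either strand, to the TATA box, spelled TATAAA, or to the SP1 motif, spelled GGGCGG. The AP-1 motif, spelled TGANTCA, had no match in these 3 windows. Neither had the CCAAT box or the GATA motif, spelled AGATAA.
S100P, chr4:6693628-6693927, plus strand: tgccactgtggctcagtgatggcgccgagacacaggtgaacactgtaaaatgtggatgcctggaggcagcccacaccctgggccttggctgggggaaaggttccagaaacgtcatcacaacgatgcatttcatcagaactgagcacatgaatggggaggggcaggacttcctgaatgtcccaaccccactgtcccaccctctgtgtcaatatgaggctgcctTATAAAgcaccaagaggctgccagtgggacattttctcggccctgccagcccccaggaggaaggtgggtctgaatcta
S100A6, chr1:153535942-153536241, minus strand: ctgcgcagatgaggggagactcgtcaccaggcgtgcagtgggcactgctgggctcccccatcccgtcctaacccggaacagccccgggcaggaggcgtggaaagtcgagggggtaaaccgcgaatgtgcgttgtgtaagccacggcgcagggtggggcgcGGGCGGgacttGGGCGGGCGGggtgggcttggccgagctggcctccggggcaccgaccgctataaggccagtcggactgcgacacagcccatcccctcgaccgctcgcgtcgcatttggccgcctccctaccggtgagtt
S100A10, chr1:151993810-151994109, minus strand: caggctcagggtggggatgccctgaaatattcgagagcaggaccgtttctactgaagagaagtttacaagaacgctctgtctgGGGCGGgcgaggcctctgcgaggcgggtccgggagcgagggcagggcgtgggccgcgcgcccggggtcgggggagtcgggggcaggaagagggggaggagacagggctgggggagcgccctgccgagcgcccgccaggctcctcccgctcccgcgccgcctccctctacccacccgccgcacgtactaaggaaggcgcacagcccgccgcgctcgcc
The S100P window held a TATA box, and the S100A6 and S100A10 windows held SP1 matches, so that the genes with the higher ratios did not share a match that S100A10 lacked. Over all 35116 promoters in the RefSeq set, 11.5% held TATAAA and 45% held GGGCGG, 7.71% held TGANTCA, 34.6% held CCAAT and 10.3% held AGATAA. Among the 27 windows of 19 members, 6 held TATAAA and 13 held GGGCGG.

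The other S100 genes at high levels were S100A11, S100A4, S100A16 and S100A13. S100A11, a partner of ANXA1 and ANXA5 that is found in many cell types, had the highest FPKM of the family, 2968 under KD and 2602 under CTRL, ranks 60 and 40 among all genes. Its log2 ratio was 0.19, and its 15079 and 13094 counts gave a ratio of count shares of -0.03, with an interval from -0.06 to 0.01 that includes equal shares. Relative to the median of all genes on that scale, -0.21, the count share ratio of S100A11 was 0.18, close to its FPKM ratio. S100A4, which binds non-muscle myosin heavy chain and is known for its link to cell motility, had an FPKM of 1523 and 2100, a log2 ratio of -0.46, with a ratio of count shares of -0.69 (-0.74 to -0.65). S100A16 had an FPKM of 431.8 and 316.9, a log2 ratio of 0.45. S100A13, known for the release of FGF1 and IL-1α from cells, had an FPKM of 343.2 and 261.9, a log2 ratio of 0.39, and the interval of its ratio of count shares, from -0.04 to 0.16, included equal shares. Exons of S100A13 and of S100A1 on the opposite strand share 235 bases in GENCODE 44, and the library kit does not mark strand, so that reads there cannot be told apart.

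At lower levels, 3 further S100 genes were each lower under KD. S100A2, a nuclear S100 protein of basal epithelia, had an FPKM of 33.7 and 49.1, a log2 ratio of -0.53. S100A3, known from the hair cuticle, had an FPKM of 7.0 and 12.9, a log2 ratio of -0.81, from 56 and 106 counts, with a ratio of count shares of -1.15 (-1.64 to -0.67). S100A14 had an FPKM of 1.15 and 1.54, from 13 and 16 counts, and the interval of its ratio of count shares ran from -1.71 to 0.62. The depth behind S100A14 could therefore not show a difference of this size.

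**Figure D2:**
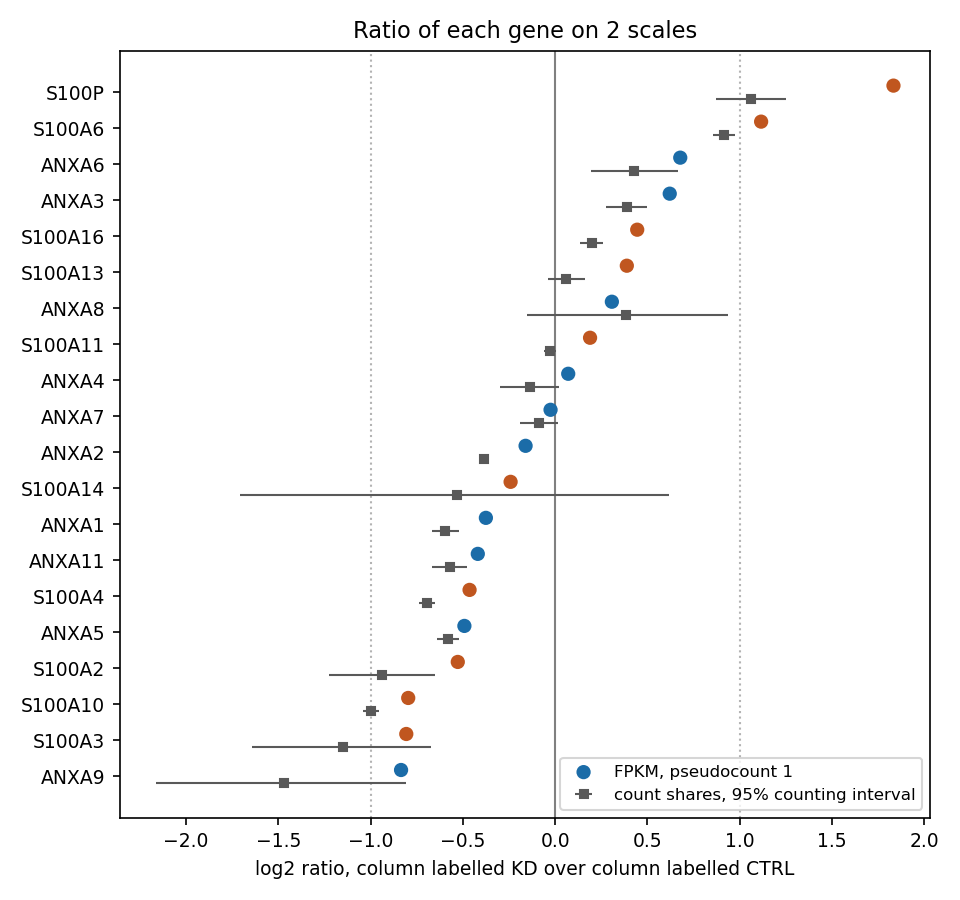
Log2 ratio of KD over CTRL for the 20 genes, from FPKM with a pseudocount of 1 (circles, blue for annexins and orange for S100 genes) and from count shares with the 95% exact binomial interval (squares and bars). Dotted lines mark a 2-fold difference, which S100P and S100A6 pass on FPKM, and the squares lie to the left of the circles for all genes but ANXA8.

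Of the 19 S100 genes, 15 lie on chromosome 1, and 9 of these 15 had a mean FPKM of at least 1. In genomic order the ratios did not run in one direction. S100A10 (-0.80) is next to S100A11 (0.19), and 4 genes under an FPKM of 1, S100A9, S100A12, S100A8 and S100A7, lie between S100A11 and S100A6 (1.12). Beyond S100A6, the neighbouring genes S100A4 (-0.46), S100A3 (-0.81) and S100A2 (-0.53) were all lower under KD. After them came S100A16 (0.45), S100A14 (-0.24) and S100A13 (0.39). S100A6 and S100A4, both on the minus strand with only S100A5 between them, thus lay on opposite sides of equal levels, with ratios of count shares of 0.91 and -0.69 whose intervals did not overlap. S100A3 and S100A4 form 1 locus in the table and S100A1 and S100A13 another, and reads may have been divided between the genes of a locus.

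**Figure D3:**
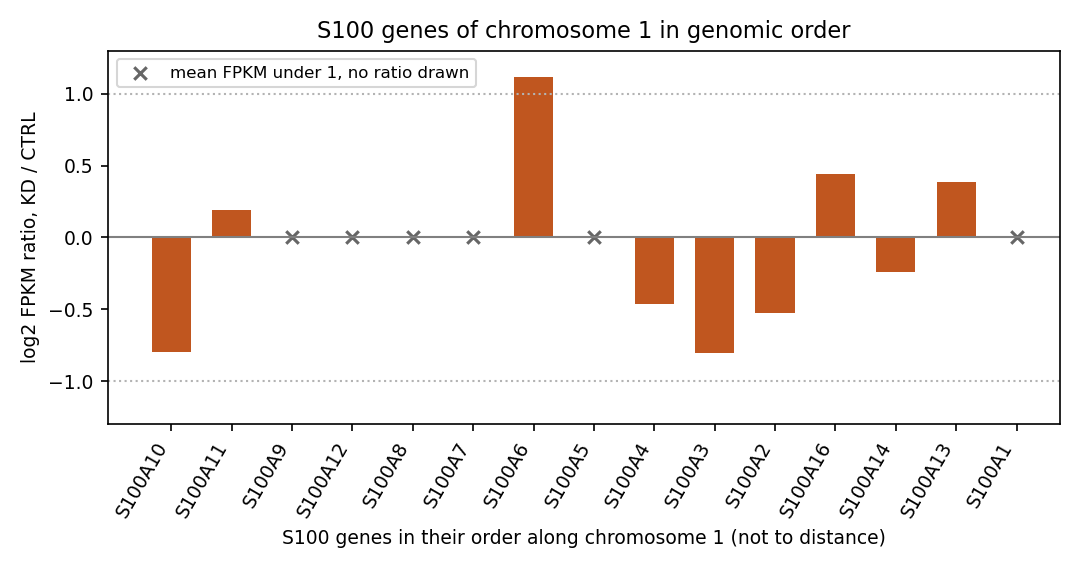
Log2 FPKM ratio (KD over CTRL) of the 15 S100 genes of chromosome 1 in their order along the chromosome, with crosses for genes under a mean FPKM of 1. Dotted lines mark a 2-fold difference, and S100A6 is the only bar past one, at 1.12, with S100A4, S100A3 and S100A2 below 0 beside it.

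Among the annexins none had a log2 ratio past 1 in either direction with the pseudocount of 1. ANXA2, which links membranes to actin and, with S100A10, binds plasminogen and its activator at the cell surface, was the most abundant annexin. It had an FPKM of 1436 under KD and 1604 under CTRL, a log2 ratio of -0.16, and its 22497 and 25070 counts gave a ratio of count shares of -0.39 (-0.41 to -0.36). ANXA2P2, a processed pseudogene of ANXA2 on chromosome 9, was listed with an FPKM of 344.1 and 596.8, from 3684 and 6461 counts. This copy and those of ANXA8 below were added after their values were seen, and reads shared with a copy may have been divided between the genes. Summed over both, the FPKM was 1780 and 2201, a log2 ratio of -0.31.

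ANXA5, ANXA11 and ANXA1 formed a group of intermediate level, and all were lower under KD. ANXA5, the annexin used as a probe for phosphatidylserine on dying cells, had an FPKM of 246.0 and 346.3, a log2 ratio of -0.49. ANXA11, which carries RNA granules on lysosomes through its long N-terminal tail, had 208.4 and 278.9, a log2 ratio of -0.42. ANXA1, or lipocortin, an anti-inflammatory protein that inhibits phospholipase A2, had 154.4 and 200.6, a log2 ratio of -0.37. Their ratios of count shares were -0.58, -0.57 and -0.59, and none of the 3 intervals included equal shares.

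The other annexins were level or higher under KD, except for ANXA9. ANXA7, or synexin, had an FPKM of 107.0 and 108.8, and ANXA4 had 31.9 and 30.3, and for both the count interval included equal shares. ANXA3 had an FPKM of 122.6 and 79.3, a log2 ratio of 0.62, with a ratio of count shares of 0.39 (0.28 to 0.50). ANXA6, the annexin with a doubled core of repeats, which acts in endosomal cholesterol transport and membrane repair, had an FPKM of 18.0 and 10.9, a log2 ratio of 0.68. Its 387 and 245 counts gave a ratio of count shares of 0.43 (0.19 to 0.67). ANXA9, a member with degenerate calcium sites, had an FPKM of 1.35 and 3.19, from 28 and 66 counts, a log2 ratio of -0.83, which was -1.18 with a pseudocount of 0.1, and a ratio of count shares of -1.47 (-2.16 to -0.81). ANXA8 had an FPKM of 4.72 and 3.62, a log2 ratio of 0.31, but its near-identical copies ANXA8L1, at 5.84 and 10.8, and ANXA8L2, at 6.28 and 11.1, went the other way. Summed over the 3 genes the FPKM was 16.8 and 25.5, a log2 ratio of -0.57, so the value of ANXA8 alone is uncertain.

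The annexins and the S100 proteins that bind them did not stand in the same proportion in both columns. S100A10 had 0.797 times the FPKM of ANXA2 under KD and 1.24 times under CTRL when ANXA2 was taken alone. Against ANXA2 and ANXA2P2 summed, chosen after the data were seen, it had 0.643 and 0.902 times the FPKM, so S100A10 was the lower in both columns. S100A11 had 19.2 and 13.0 times the FPKM of ANXA1, and 12.1 and 7.52 times that of ANXA5. S100A6 had 6.13 and 2.11 times the FPKM of ANXA11, and 70.8 and 54.0 times that of ANXA6. These are proportions of mRNA levels per length, and proteins were not measured. They still hold the trend of the ratio with GC content and length. Without that trend the log2 ratios were 0.65 for S100A6, 0.51 for ANXA6 and -0.46 for ANXA11. For S100A11, ANXA1 and ANXA5 they were 0.04, -0.17 and -0.37, and for S100A10 and ANXA2 they were -0.77 and -0.02. The part of the trend in the proportions was not tested.

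The other 11 genes had a mean FPKM under 1, and no log2 ratio of FPKM is given for them. Of these, 8 were listed at 0 in both columns. They were ANXA13, S100A7, S100A8, S100A9, S100A12, S100B, S100G and S100Z. S100A8, S100A9 and S100A12 are the calgranulins of neutrophils and monocytes, and all 6 myeloid markers, MPO and LYZ among them, were under an FPKM of 1 in both columns, with a summed FPKM of 0.496 and 0.443. ANXA10 had 1 count in each column and S100A5 had 3. S100A1, the S100 protein of heart muscle, had an FPKM of 1.36 under KD and 0.13 under CTRL, from 10.4 and 4 estimated counts. The interval of its ratio of count shares, from -0.70 to 3.22, included equal shares. A count of S100A1 was worth 0.131 FPKM under KD and 0.0325 under CTRL, a quotient of 4.04, so its FPKM and counts differ in amount.

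When counts divided by the column totals replaced FPKM and its pseudocount of 1, the median log2 ratio of all genes moved from 0.01 to -0.21. On that scale S100P was past 2-fold higher and ANXA9 and S100A3 were past 2-fold lower, 1 and 2 of the 20 genes, against 6.92% and 9.83% of all genes. Relative to the median of all genes, the ratios of count shares were 1.27 for S100P, 1.12 for S100A6, -0.79 for S100A10, -0.94 for S100A3 and -1.26 for ANXA9. Intervals for 5 of the 20 genes lay above equal shares, those for 9 lay below, and those for 6 included it. Equal shares, or 0, lies above the median of all genes on this scale, -0.21, so these numbers are not relative to that median. Relative to it the 6 were 0.59 for ANXA8, 0.27 for S100A13, 0.18 for S100A11, 0.12 for ANXA7, 0.07 for ANXA4 and -0.32 for S100A14.

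The log2 FPKM ratio also went along with GC content over all genes. With genes in 4 groups of equal size by GC content, its median was -0.24 in the lowest group and 0.47 in the highest, with a Spearman rho of 0.445 across 13298 genes of the same columns. The tested members ranged from 38.9% GC for ANXA4 to 60.2% for S100A6, with a value for 19 of 20. After this trend was taken out together with that of length, S100P was past 2-fold higher, and ANXA9, at -1.05, and S100A3, at -1.20, were past 2-fold lower, against 5.45% and 3.41% of all genes. S100A16 moved from 0.45 to 0.08, whereas ANXA3, whose GC content was 40%, moved from 0.62 to 0.83.

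**Figure D4:**
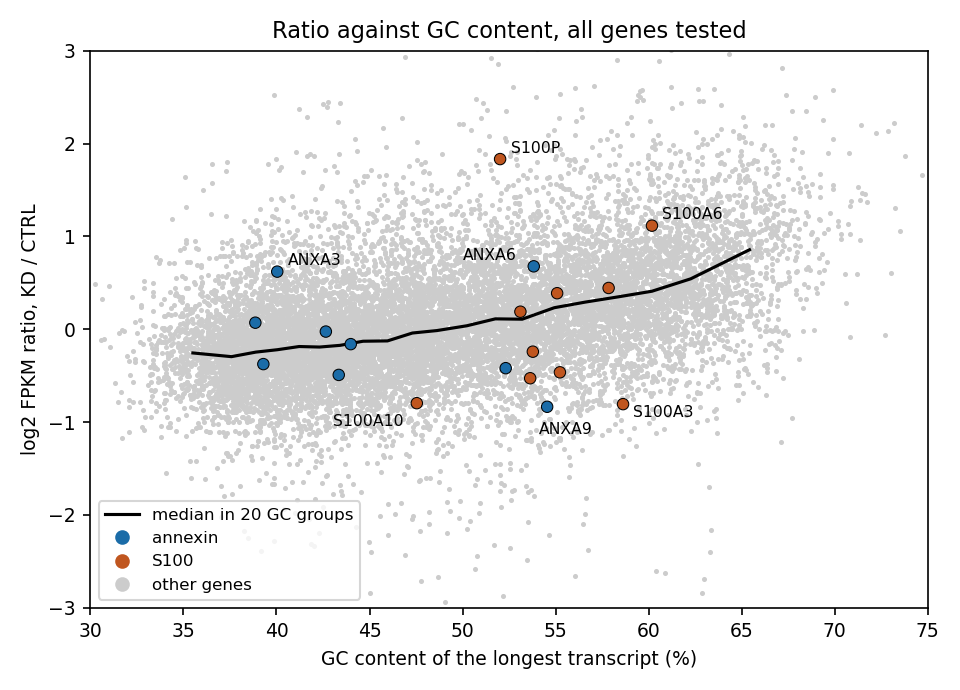
Log2 FPKM ratio against the GC content of the longest transcript for all genes tested (grey), with annexins in blue, S100 genes in orange and the median in 20 groups of equal size as a line. S100A6 lies at the GC-rich end above the line, S100P lies at 52% GC and 1.83, and S100A3 and ANXA9 lie below the line; ANXA8 has no GC value and 53 genes fall outside the axes.

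The genes that work with annexins and S100 proteins were described from 4 lists. Of 20 annexin partners and membrane repair genes, 16 had a mean FPKM of at least 1, with 8 higher and 8 lower under KD, none past 2-fold and a median log2 ratio of -0.06. CAPNS1, the small calpain subunit, was the most abundant, at 891.8 and 865.3 FPKM, followed by PDCD6, at 595.6 and 520.1. The largest ratios were those of VPS4A, the ATPase that recycles ESCRT-III, at 0.86, and CAPN1, a calpain, at 0.83. Without the trend in GC and length they were 0.70 and 0.37, and on count shares 0.63 and 0.39. MYOF, at -0.72 on FPKM and -0.60 without the trend, was just past 2-fold lower on count shares, at -1.01. Its interval, from -1.08 to -0.94, included -1, and the median of all genes on that scale was -0.21. Of 16 S100 receptors and targets, all were tested, 8 of them higher and 8 lower, and the median was 0.14. The genes past 2-fold in that list were AGER, which encodes the receptor RAGE, at 4.35 and 1.18 FPKM with a log2 ratio of 1.29, and MYH9, the non-muscle myosin heavy chain that S100A4 binds, at 64.8 and 31.5 with a log2 ratio of 1.02. Without the trend in GC and length neither was past 2-fold, at 0.89 for AGER and 0.73 for MYH9. On count shares MYH9 was at 0.84, and AGER was past 2-fold, at 1.07. The value of AGER rests on 37 and 15 counts, with an interval from 0.17 to 2.04. TUBA1B, at 993.6 and 650.4 FPKM, and BSG, at 609.5 and 411.0, were the most abundant members of that list.

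Other EF-hand calcium proteins had a median log2 ratio of 0.25 over the 24 of 28 that were tested, with 14 higher and 10 lower. EFHD2, or swiprosin, was at 66.9 and 28.3 FPKM, a log2 ratio of 1.22. PLS3, the actin bundler T-plastin, was at 49.8 and 115.5, a log2 ratio of -1.20. Without the trend these were 0.67 and -0.97, neither past 2-fold, but on count shares both were past it, at 1.01 and -1.44. SRI, at 153.4 and 80.2 FPKM with a log2 ratio of 0.93, was past 2-fold without the trend, at 1.15. Its ratio of count shares was 0.77. CALM2, which encodes calmodulin, was at 692.6 and 904.9 FPKM. Of 25 neighbours of the S100 cluster, 11 were tested, with 4 higher and 7 lower and none past 2-fold, and the median was -0.03. ILF2, at 319.9 and 326.0, and SLC39A1, at 222.0 and 173.3, were the most abundant of them, and the ratios farthest from 0 were those of SLC27A3, at -0.71, and CREB3L4, at -0.45. Without the trend SLC27A3 was past 2-fold lower, at -1.13, and its ratio of count shares was -0.72. The same 8.51% and 3.27% of all genes are the background for these lists on FPKM. For count shares and without the trend, the percentages given above for those scales apply.

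The study asked how αCPs act at C-rich polypyrimidine tracts, which lie before splice acceptors, so the acceptors of the members were read from GRCh37, the build of the table, for the canonical transcripts of GENCODE 44. Splicing itself was not measured in the table, so the following describes sequence only. The 50 nt before each acceptor were searched on the RNA strand for a 10-letter C-rich consensus, the motif that the study derived from exons affected by αCP depletion. It was found at 13 of 145 acceptors of 19 members, 8.97%, against 8.02% of 122000 acceptors of all genes tested. These 13 were unevenly spread. ANXA6 held 7 of them over 25 acceptors, 28%, with a median of 36% C, whereas ANXA1, ANXA2, ANXA3, ANXA4, ANXA5 and ANXA7 held none and had medians of 12% to 20% C. The rest were in ANXA9, ANXA11, S100A4, S100A14 and S100A16. ANXA6 was also the annexin with the highest log2 FPKM ratio, 0.68, and no relation between the 2 values was tested. Without the trend in GC and length, ANXA3 was the highest of the annexins with a GC value, at 0.83, and ANXA6 was at 0.51.

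The tracts below are the 30 nt that end at the acceptor, written 5′ to 3′ as RNA, with the consensus in capitals. ANXA6 exon 21 is shown because it is 18 nt long, is skipped in an annotated transcript and has the most C of all 145 acceptors, 54%. The other ANXA6 tract and that of the last exon of S100A4 show further matches, and ANXA2 and S100A10 show U-rich tracts without it.
ANXA6 exon 21, chr5:150490206-150490235, minus strand: CUCCCUcCUCUCUCCCCUCCCUgcucucag
ANXA6 exon 14, chr5:150506042-150506071, minus strand: cugUCCUCUCCCUaaaccccuccauuccag
S100A4 exon 3, chr1:153516400-153516429, minus strand: uuuucuaucuguagccUCUUCUCCCUccag
ANXA2 exon 3, chr15:60674641-60674670, minus strand: cauuugaguauguuuaucuuuuaaccucag
S100A10 exon 3, chr1:151955801-151955830, minus strand: auuucuugccuuuguucuuuuuuuuuucag
In ANXA6 exon 21 the run of C and U covers most of the tract, and its first capitals belong to a match that begins before the 30 nt shown, and in S100A10 exon 3 the 50 nt hold 22% C and 56% U. Exon 3 of ANXA2, which an annotated transcript also skips, has 10% C and 44% U. Over the internal exons of the members, 11 of 126 are skipped in at least 1 annotated transcript, 8.73%, against 10.8% of those of all genes tested, and annexins hold 116 of these 126 internal exons.

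**Figure D5:**
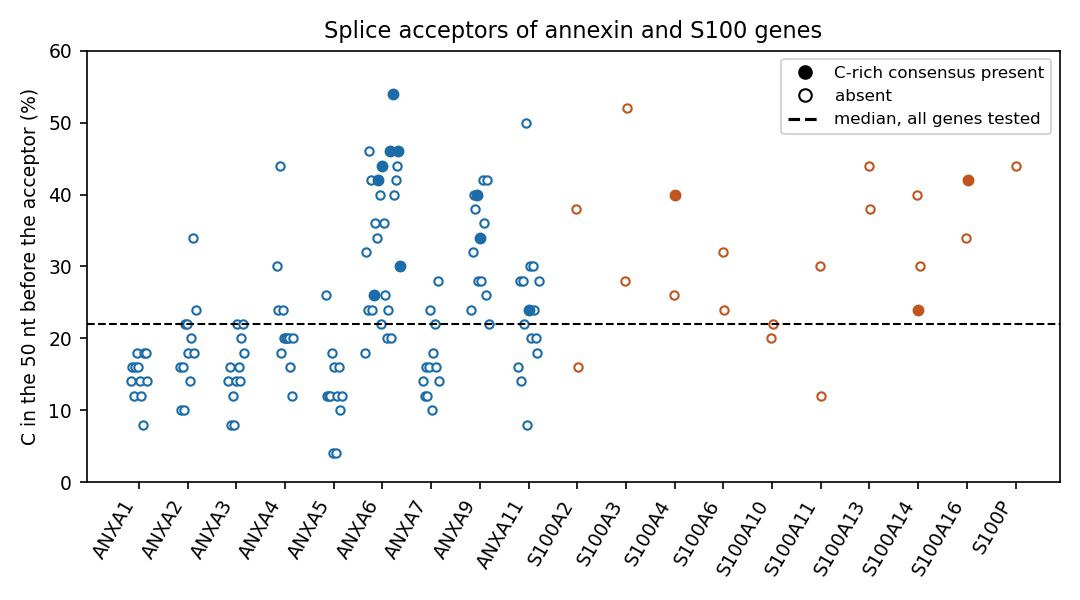
Percent C in the 50 nt before each splice acceptor of the canonical transcript, by gene, for 9 annexins (blue) and 10 S100 genes (orange), with filled circles where the C-rich consensus is present and a dashed line at the median of all genes tested, 22%. ANXA6 holds 7 filled circles up to 54%, and ANXA1 to ANXA5 and ANXA7 hold none; ANXA8 is not in the annotation used and is not drawn.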

How the data were processed

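The authors mapped the reads with TopHat 1.4.1 to hg19 and Ensembl release 65 and deposited FPKM from Cuffdiff 2.2.0 with estimated counts, 1 value of each per gene and group, and the way the 3 libraries were merged is not given in the sources used here. The estimated counts need not be whole: 78.4% and 79.4% of the positive values were whole within 0.0001. The analysis used these group values, and the further deposited columns (repeated group averages, the authors' fold changes, p-values and FDR) were left out. Log2 ratios used FPKM + 1 and needed a mean FPKM of 1 or more. Count intervals are exact binomial at 95% on rounded counts and cover counting error only. Linear models, leave-one-out fits and permutation tests need replicates and were not run. GC content and length came from the longest GENCODE 44 transcript, and a quadratic trend in both was removed as an alternative. Members of every list were named by the highest mean FPKM and the largest ratio, 2 each. SRI and MYOF were named in addition, for ratios past 2-fold on another scale. Some items are not reported here. The family and the lists were chosen with earlier results of these data known, although the rule for members reads symbols alone. The functions were tested on simulated data. Software comprised pysam 0.24.0, scipy 1.17.1, matplotlib 3.10.9, pandas 2.3.3 and numpy 2.4.6, under Python 3.11.15. Protein sequences were not analysed here.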

Additional observations from a re-analysis of the deposited data

How the results depend on the processing

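No paired analysis was possible because pools were not kept apart in the deposited columns, and likewise no library could be left out. Counts divided by the column total, which changes both the scaling and the pseudocount, gave 1 member past 2-fold higher and 2 lower, and 951 and 1351 genes in all, so that 41.3% of the genes past 2-fold were higher, against 72.2% with FPKM. Medians on that scale were -0.26 for the members and for the annexins, -0.27 for the S100 genes, -0.29 for annexin partners, -0.017 for S100 receptors and targets, 0.013 for other EF-hand proteins and -0.29 for neighbours of the cluster. After removing the GC and length trend, 1 member was past 2-fold higher and 2 lower, 725 genes in all were higher against 1169, and the median of the S100 genes was -0.20. A pseudocount of 0.1 gave 1 member, ANXA9, and 791 genes past 2-fold lower, against 0 and 450. An FPKM over 5 in at least 1 column left 292 genes lower, where fewer genes were counted, and a median of 0.19 for the 9 S100 genes left. With no filter the median of the other EF-hand proteins was 0.037. Centring on the median moved no value past its limit. Elsewhere the cause was not tested. Limits were 1.5 times for a count and, for ratios, the reach of the counting interval. Depth limits S100A14, S100A1 and other genes with few counts.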

Other observations

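For 3 genes named after annexins or S100 proteins, chosen after their values were seen, the levels were as follows. S100PBP, which encodes a nuclear binding partner of S100P, had an FPKM of 10.3 under KD and 15.4 under CTRL, a log2 ratio of -0.53, opposite in direction to S100P. ANXA2R, a receptor for ANXA2, had 5.48 and 4.91, and the interval of its ratio of count shares, from -0.42 to 0.29, included equal shares. S100A7A, the psoriasin-like copy of S100A7, was listed at 0 in both columns, as was S100A7.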
